A study of Mus musculus with 10 samples.

Results

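The core of the MAP kinase cascade was examined through 7 genes measured in mouse melanomas, namely the small GTPase genes Nras and Hras, the Raf kinase genes Araf and Braf, the Mek kinase genes Map2k1 and Map2k2, and the Erk kinase gene Mapk3. They were taken by gene symbol from 47643 genes, and all 7 passed the filter on low counts. Other Ras family GTPases and Mek and Erk relatives are described only in the pathway lists below. Further Ras, Raf and Erk genes are not reported here. RNA was sequenced from 10 tumours, 5 labelled Fes-/- (called Fes KO) and 5 labelled Fes+/+ (called Fes WT). Fes encodes a cytoplasmic tyrosine kinase. Both groups also carried 1 copy of Tyr::CreERT2, in which the tyrosinase promoter drives a tamoxifen-activated Cre recombinase in melanocytes, and 1 engineered oncogenic Braf copy beside 1 normal copy. Tumours were started by 4OH-tamoxifen at 5 mM on the back skin. The sources used here do not give the ages of the mice.

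In this cascade, Ras proteins switch on when they bind GTP and recruit Raf kinases to the membrane. Raf phosphorylates Mek, and Mek phosphorylates Erk, which enters the nucleus and drives transcription of growth genes. The cascade is the main growth signal of melanoma, where it is often fixed in the active state by a mutation in BRAF or NRAS. It is regulated chiefly by GTP binding, phosphorylation and protein complexes, none of which RNA counts measure.

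Total counts ranged from 13226783 to 16599120 per tumour. The targeted gene Fes was lower in every Fes KO tumour, at 29.2 to 57.5 CPM (counts scaled to edgeR's normalised library size), than in every Fes WT tumour, at 72.4 to 102 CPM (exact 2-sided permutation p = 0.00794, the smallest possible with 5 against 5), although its log2 fold change of -1.06 (SE 0.19) had an edgeR adjusted p of 0.0846 over all genes. The 10 macrophage markers summed to 974.4, 2044, 925.2, 2192 and 930.6 CPM in Fes KO 1 to 5 and to 3455, 1937, 2507, 1472 and 2573 CPM in Fes WT 1 to 5. Fes KO 4 had the most of both Fes and these markers among the Fes KO tumours, and their part in the Fes difference was not tested. The 9 melanocyte markers summed to 1114 to 1461 CPM in Fes KO tumours and to 760.1 to 1292 CPM in Fes WT tumours. Mlana had 0 counts in 1 tumour and Tyrp1 in 2. Single markers differed widely in level, with 6284 to 15377 counts per tumour for Sox10 and 26 to 5219 for Dct. By the mean of log2 CPM over the 9 markers, Fes KO 2 was highest at 6.24, against at most 4.59 in the other tumours. Tumours Fes KO 2 and Fes WT 3 stood apart in tissue content. The 10 keratinocyte markers summed to 5705 CPM in Fes KO 2, against at most 16.8 CPM in the other Fes KO tumours, and the 10 skeletal muscle markers to 15244 CPM in Fes WT 3, against at most 396.5 CPM in the other Fes WT tumours. Fes KO 2 also had 1876 CPM of the muscle markers. Whether each tumour came from a different mouse is not stated, so the p-values cover tumour-to-tumour spread, which may be partly technical.

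None of the 7 genes passed the test between Fes KO and Fes WT, and all 7 had overlapping groups. Nras, Araf and Map2k1 had log2 fold changes between -0.0016 and 0.012, Map2k2 and Mapk3 had 0.06 each, Braf had 0.17 and Hras 0.24. The question was whether RNA of the cascade that the engineered Braf copy drives differs with Fes genotype. In edgeR's quasi-likelihood test, with Benjamini-Hochberg adjustment over the 14816 genes tested, 0 of the 7 had an adjusted p below 0.05, where 0.175% of all genes did (0.0472% higher and 0.128% lower in Fes KO). At an unadjusted p below 0.05 there were also 0 of the 7, against 9.62% of all genes (4.23% higher and 5.39% lower). DESeq2 called 0 of the 7 and 1.7% of all genes it tested, limma-voom with quality weights 0 and 0.776%, and edgeR with keratinocyte and muscle levels as covariates 0 and 0.722%. Limma on the deposited log2 values also called 0 of the 7, and 25 of the 14816 genes. The groups did not overlap in CPM for 0 of the 7, against 1.9% of all genes (0.783% higher and 1.11% lower). Of the 7 log2 fold changes 6 lay above 0, as did 52.4% of those of all genes. A bulk sample cannot tell apart fewer cells of a type and less RNA per cell.

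**Figure D1:**
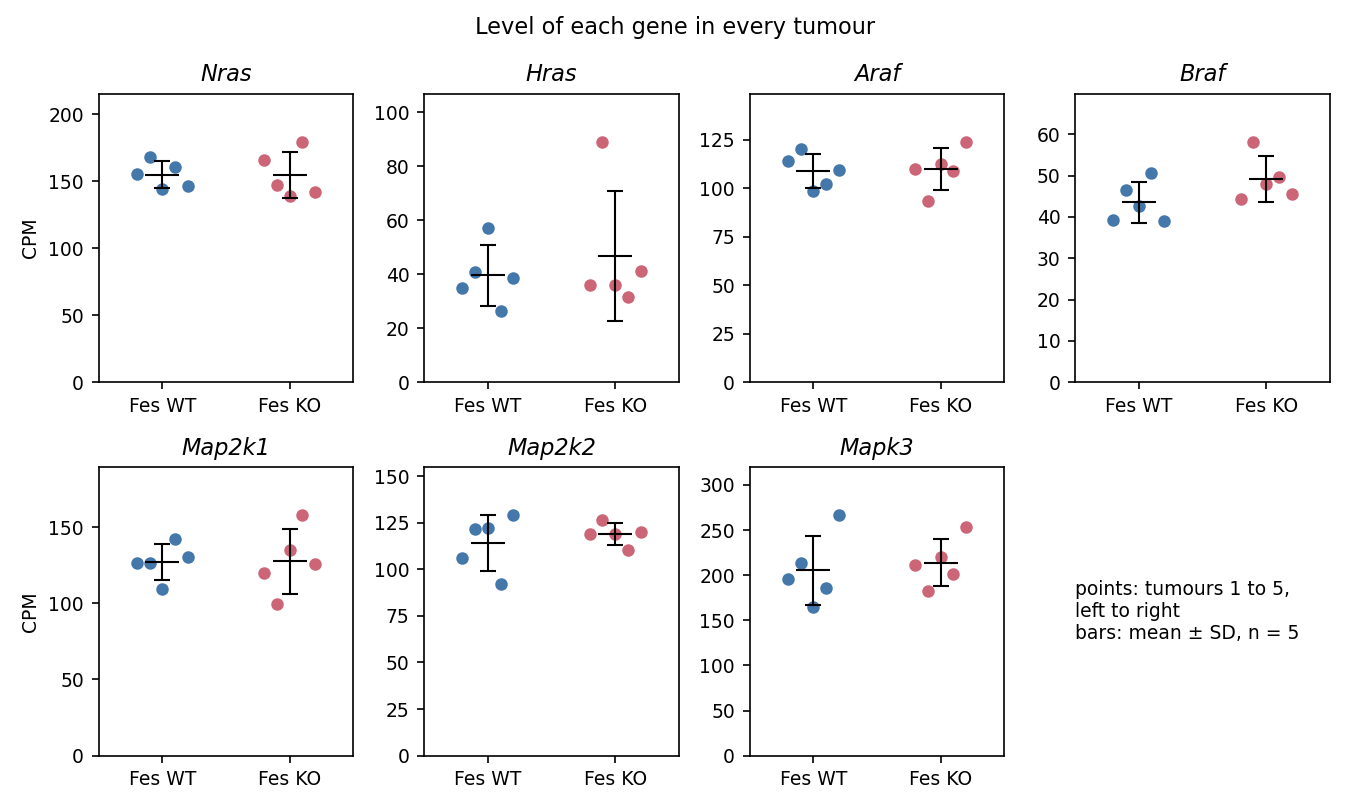
Level of each gene in CPM (vertical axes from 0) in the 5 Fes WT and the 5 Fes KO tumours. Points are tumours 1 to 5 from left to right and bars give the mean and SD. The groups overlap in all 7 genes, and Hras in Fes KO 2, at 89.1 CPM, lies above the other tumours.

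Nras (ENSMUSG00000027852, chromosome 3, 103058285 to 103067914 in GRCm38, plus strand), a Ras GTPase that is itself a frequent melanoma oncogene, was at 165, 147, 139, 179 and 142 CPM in Fes KO 1 to 5 and at 155, 168, 144, 160 and 146 CPM in Fes WT 1 to 5. The highest and the lowest value were both Fes KO tumours, Fes KO 4 and Fes KO 3. The mean was 154 ± 17.4 CPM for the Fes KO tumours against 155 ± 10.01 CPM for the Fes WT tumours (SD, n = 5 each). The log2 fold change of -0.0016 (SE 0.09) had a 95% interval from -0.20 to 0.20, which is a fold of 0.8686 to 1.149 (edgeR adjusted p = 0.998).

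Hras (ENSMUSG00000025499, chromosome 7, 141189105 to 141194005, minus strand), the other Ras GTPase among the 7 genes, was at 35.9, 89.1, 35.9, 31.6 and 41.0 CPM in Fes KO 1 to 5. In Fes WT 1 to 5 it was at 35.01, 40.9, 57.2, 26.2 and 38.6 CPM. The 2 high tumours were Fes KO 2 and Fes WT 3, 1 in each group, and the other 8 lay between 26.2 and 41.0 CPM. The log2 fold change of 0.24 (SE 0.31) had a 95% interval from -0.45 to 0.92, or 0.734-fold to 1.89-fold (edgeR adjusted p = 0.836). This direction rested on Fes KO 2, since without Fes KO replicate 2 the log2 fold change of Hras was -0.15 (edgeR adjusted p = 0.829). Without Fes WT replicate 3 it was 0.41, and without both of these tumours 0.03.

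Araf (ENSMUSG00000001127, chromosome X, 20797814 to 20860519, plus strand), the X-linked Raf kinase gene, was at 110, 93.4, 113, 109 and 124 CPM in Fes KO 1 to 5 and at 114, 120, 98.4, 102 and 110 CPM in Fes WT 1 to 5. The lowest tumours of the groups were Fes KO 2 and Fes WT 3, where Hras was high. Xist RNA, which coats the silenced X, stood at 713, 670.1 and 719.8 CPM in Fes KO 1, Fes KO 2 and Fes WT 5, and the other 7 tumours had at most 0.678 CPM. The Y chromosome gene Ddx3y was at 0, 0 and 0.0762 CPM in these 3 tumours and at 71.8 to 115 CPM in the other 7. Both genotypes thus held tumours of both patterns. Araf in those 3 tumours, at 110, 93.4 and 110 CPM, lay below the range of the others, which was 98.4 to 124 CPM, in Fes KO 2 and within it in Fes KO 1 and Fes WT 5. The log2 fold change of Araf between the genotypes was 0.01 (SE 0.09), with a 95% interval from -0.19 to 0.21 (edgeR adjusted p = 0.979).

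Braf (ENSMUSG00000002413, chromosome 6, 39603237 to 39725463, minus strand), the Raf kinase gene that carries the engineered copy, was at 44.4, 58.2, 48.0, 49.8 and 45.5 CPM in Fes KO 1 to 5. In Fes WT 1 to 5 it was at 39.2, 46.5, 42.7, 50.6 and 38.9 CPM. The 3 lowest tumours were all Fes WT and the highest was Fes KO 2, but Fes WT 4 was second. Gene counts do not separate the engineered from the normal copy. The log2 fold change of 0.17 (SE 0.10) had a 95% interval from -0.06 to 0.41, or 0.960-fold to 1.33-fold, and the lowest unadjusted p of the 7 genes (0.127, edgeR adjusted p = 0.619). Over the 21 alternatives tried, it lay between 0.09 and 0.23, and the lowest adjusted p was 0.482. The lowest log2 fold change of Braf, 0.09, came without Fes KO replicate 2, the tumour with the most Braf. Between 511 and 934 reads per tumour were counted to Braf, so that the counting error of at most 4.42% was smaller than the coefficient of variation of 12.4% over the 10 tumours.

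Map2k1 (ENSMUSG00000004936, chromosome 9, 64185770 to 64253631, minus strand), which encodes Mek1, was at 120, 99.5, 135, 158 and 126 CPM in Fes KO 1 to 5 and at 126, 127, 109, 142 and 130 CPM in Fes WT 1 to 5. Fes KO 2 and Fes WT 3 were the lowest of their groups, and Fes KO 4 and Fes WT 4 the highest. Map2k2 (ENSMUSG00000035027, chromosome 10, 81105915 to 81133975, plus strand), which encodes Mek2, was at 119, 127, 119, 110 and 120 CPM in Fes KO and at 106, 122, 122, 91.8 and 129 CPM in Fes WT. Here Fes KO 4 and Fes WT 4 were the lowest of their groups. The log2 fold changes were 0.01 (SE 0.12, 95% interval -0.26 to 0.28) for Map2k1 and 0.06 (SE 0.10, 95% interval -0.16 to 0.27) for Map2k2, with edgeR adjusted p values of 0.992 and 0.877.

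Mapk3 (ENSMUSG00000063065, chromosome 7, 126759601 to 126765819, plus strand), which encodes the kinase Erk1, was at 212, 183, 220.4, 201 and 253 CPM in Fes KO 1 to 5 and at 196, 214, 165, 186 and 267 CPM in Fes WT 1 to 5. The highest and the lowest tumour were both Fes WT, Fes WT 5 and Fes WT 3. The log2 fold change was 0.06 (SE 0.14), with a 95% interval from -0.25 to 0.36 (edgeR adjusted p = 0.921). Mapk3 and Hras share chromosome 7 with the targeted gene, 46.4 Mb and 60.8 Mb from Fes.

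**Figure D2:**
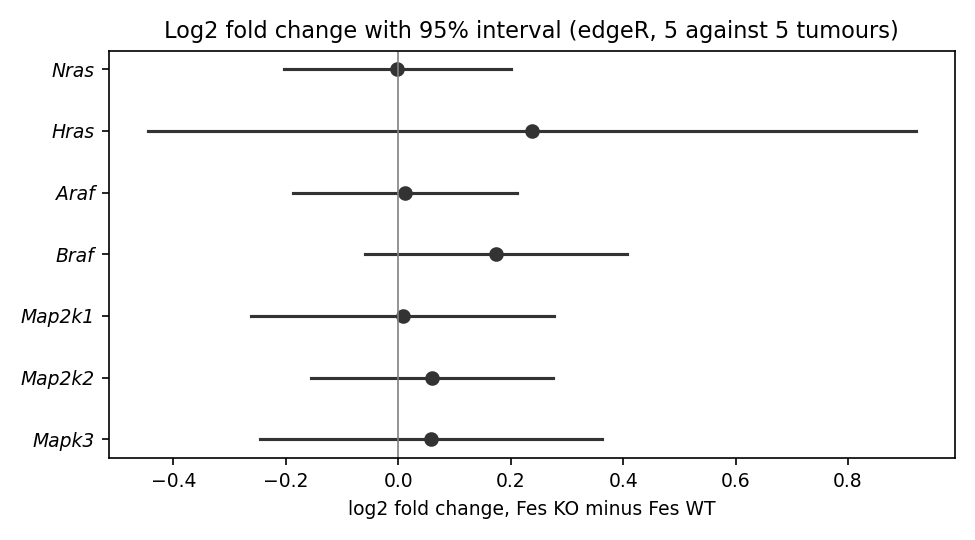
Log2 fold change of each gene, Fes KO minus Fes WT (horizontal axis), with its 95% interval from the edgeR fit. All 7 intervals include 0, and the widest, of Hras, runs from -0.45 to 0.92.

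Hras varied most between tumours of the 7 genes. The coefficient of variation of CPM over the 10 tumours was 8.6% for both Araf and Nras, 9.46% for Map2k2, 12.4% for Braf, 12.7% for Map2k1 and 14.9% for Mapk3, against 41.8% for Hras. The within-group SD of log2 CPM was 0.51 for Hras, where the 1000 genes nearest to it in level had a median of 0.20 and 12.5% of them a larger SD. For Nras it was 0.13, and 79.5% of the 1000 genes nearest in level had a larger one, as did 76.1% for Araf, 69.9% for Map2k2 and 65.2% for Braf. Map2k1 and Mapk3 had SDs of 0.20 and 0.22, the same as the medians for their levels, and 51.2% and 50.7% of those genes had a larger one. Without Fes KO 2 and Fes WT 3, the coefficient of variation of Hras over the other 8 tumours was 13.9%, against 12.8% for Mapk3 over the same 8. Whether the keratinocyte and muscle content of those tumours has a part in their Hras level was not tested.

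Levels of different genes were compared per kb of merged exon length (RPKM). Mapk3 was highest at 92.9 ± 13.8 RPKM (SD over 10 tumours), followed by Map2k1 at 37.5 ± 4.78, Nras at 29.0 ± 2.505, Map2k2 at 20.6 ± 1.95, Araf at 16.7 ± 1.44, Hras at 11.6 ± 4.83 and Braf at 3.35 ± 0.415 RPKM. Each gene lay above the next in all 10 tumours, except that Araf lay above Hras in 8. The ranges over tumours overlapped between Map2k1 and Nras, between Map2k2 and Araf and between Araf and Hras. The engineered gene Braf was thus the lowest of the 7 in every tumour, at 2.81 to 4.202 RPKM. The order in the middle depends on the length used. Per kb of the longest transcript, Map2k2 had 48.5, Araf 38.3 and Nras 34.6 RPKM, which placed Nras below Map2k2 and Araf, while Mapk3, Map2k1, Hras and Braf kept their places by mean level.

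**Figure D3:**
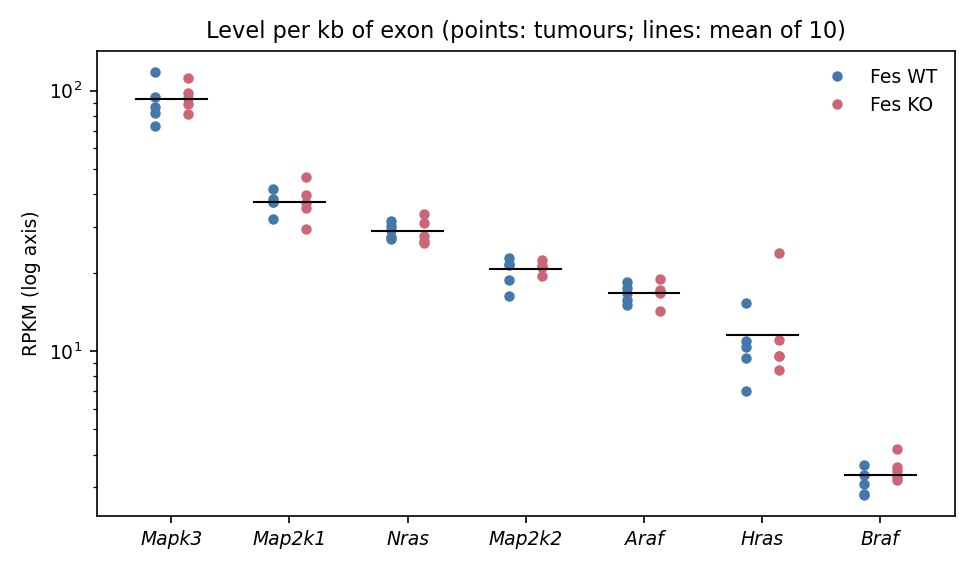
Level per kb of merged exon length in RPKM on a log axis, in Fes WT (left of each pair) and Fes KO tumours. Lines are means over 10 tumours. Mapk3 lies between 73.2 and 118 RPKM, above every other gene, and Braf between 2.81 and 4.202 RPKM, below every other gene.

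Within each protein family the balance between genes shifted from tumour to tumour. The ratio of Nras to Hras in RPKM ran from 1.16 in Fes KO 2 to 4.29 in Fes WT 4, with a median of 2.79. That of Map2k1 to Map2k2 ran from 1.31 to 2.58 in the same tumours. The ratio of Araf to Braf ran from 3.40 in Fes KO 2 to 6.16 in Fes WT 1. These sizes depend on the length used. Per kb of the longest transcript, Map2k1 to Map2k2 ran from 0.776 to 1.53 and was below 1 in 4 of 10 tumours, where it was above 1 in all 10 per merged exon length. Araf to Braf then ran from 5.46 to 9.90, and Nras to Hras from 1.05 to 3.88. By genotype the ratios per merged exon length overlapped, at 2.70 ± 1.05 in Fes KO and 2.93 ± 0.914 in Fes WT for Nras to Hras, 1.81 ± 0.390 and 1.90 ± 0.421 for Map2k1 to Map2k2, and 4.81 ± 0.892 and 5.36 ± 0.774 for Araf to Braf (SD, n = 5 each).

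How the genes moved with each other over the 10 tumours was measured on log2 CPM for all 21 pairs. Hras and Map2k1 ran in opposite directions, with Pearson's r of -0.88 (permutation p = 0.00101, adjusted p = 0.0212 over the 21 pairs) and Spearman's rho of -0.82 (permutation p = 0.00582, adjusted p = 0.0611). In each genotype the tumour with the most Hras, Fes KO 2 or Fes WT 3, had the least Map2k1, and the tumour with the least Hras, Fes KO 4 or Fes WT 4, had the most. Without the 2 tumours farthest from the median of Hras, which are Fes KO 2 and Fes WT 3, r was -0.63 and rho -0.64 over 8 tumours (exact permutation p = 0.0982 and 0.0962). The direction was kept. With all 10 tumours the adjusted p was below 0.05 by Pearson's r and not by Spearman's rho. Over the 8 tumours neither p was below 0.05, although these were not adjusted over pairs. Of 13518 other protein-coding genes, 96 (0.71%) had an r with Hras at or below that of Map2k1.

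**Figure D4:**
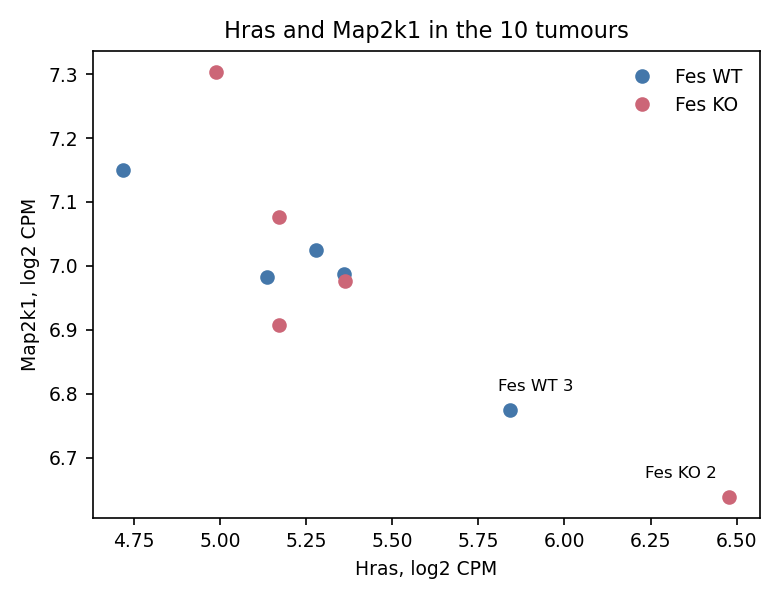
Map2k1 against Hras, both in log2 CPM, with 1 point per tumour. Fes KO 2 and Fes WT 3 lie at the lower right, with the most Hras and the least Map2k1 of their groups, and the other 8 tumours lie to the left of them.

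Hras and Map2k2 did not pass over the 21 pairs, with Spearman's rho of 0.85 (permutation p = 0.00297, adjusted p = 0.0611) and Pearson's r of 0.66 (permutation p = 0.0561, adjusted p = 0.393). Without Fes KO 2 and Fes WT 3, r was 0.89 over the other 8 tumours (exact permutation p = 0.00697, not adjusted over pairs). Of the 13518 genes, 9.66% had an r with Hras at or above that of Map2k2. Araf and Mapk3 had r of 0.69 and rho of 0.70 (permutation p = 0.0269 and 0.0303, adjusted p = 0.282 and 0.212), and r of 0.56 without Fes KO 2 and Fes KO 5. An r this high was found for 5.07% of genes with Araf and for 4.61% with Mapk3. The other 18 pairs had Pearson adjusted p values of at least 0.513, among them Map2k1 and Map2k2 with r of -0.54.

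The promoters of Hras and Map2k1, the pair that passed by Pearson's r, and of Map2k2, the other Mek gene, are shown so that their sequences can be set side by side. RefSeq windows of 250 bases before to 50 bases after the start (build GRCm38.p6) were found for 6 of the 7 genes, all but Mapk3. Capitals mark GGGCGG or CCGCCC, the GC box bound by Sp1 family factors, and CCAAT or ATTGG, the CCAAT box bound by NF-Y, each searched on both strands. The windows are given 5′ to 3′ on the gene's strand, at chr7:141193955-141194254 (minus strand) for Hras, chr9:64253556-64253855 (minus strand) for Map2k1 and chr10:81105665-81105964 (plus strand) for Map2k2.
Hras: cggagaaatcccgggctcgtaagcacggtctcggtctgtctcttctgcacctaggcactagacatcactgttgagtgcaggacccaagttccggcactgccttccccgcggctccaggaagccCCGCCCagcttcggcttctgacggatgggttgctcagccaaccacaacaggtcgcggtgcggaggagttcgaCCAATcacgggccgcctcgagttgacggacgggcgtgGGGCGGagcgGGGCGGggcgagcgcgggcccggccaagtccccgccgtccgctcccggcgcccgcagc
Map2k1: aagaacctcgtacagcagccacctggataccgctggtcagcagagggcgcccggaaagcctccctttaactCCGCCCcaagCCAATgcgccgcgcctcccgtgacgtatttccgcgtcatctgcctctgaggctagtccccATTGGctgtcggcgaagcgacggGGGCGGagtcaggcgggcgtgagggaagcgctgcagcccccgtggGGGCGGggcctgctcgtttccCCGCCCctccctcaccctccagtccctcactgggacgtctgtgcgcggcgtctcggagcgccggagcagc
Map2k2: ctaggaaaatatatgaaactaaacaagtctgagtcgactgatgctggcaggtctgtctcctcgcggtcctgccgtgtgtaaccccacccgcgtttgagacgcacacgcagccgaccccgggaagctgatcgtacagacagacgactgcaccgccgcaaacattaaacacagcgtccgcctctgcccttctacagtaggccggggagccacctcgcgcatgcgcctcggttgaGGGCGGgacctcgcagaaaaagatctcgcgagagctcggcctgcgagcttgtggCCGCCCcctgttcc
Hras held 3 GC boxes and 1 CCAAT box, Map2k1 held 4 and 2, and Map2k2 held 2 GC boxes with no CCAAT match. Of 32851 windows of this length, 35.7% held a GC box and 37.4% a CCAAT box. The G and C content was 69.0% in Hras and in Map2k1 and 60.7% in Map2k2. The cyclic AMP response element TGACGTCA, found in 1.79% of windows, occurred 2 times in the Braf window and in none of the other 5. These matches describe the letters and were not tested against the levels.

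For each gene, the protein-coding genes with the most similar pattern over the 10 tumours were listed, by Pearson's r of log2 CPM and with no test. Nearest to Hras were Aatf (r = 0.97, rho = 0.94) and Atp6v1d (r = 0.96, rho = 0.93), and nearest to Nras were Zfp458 (r = 0.90, rho = 0.77) and Pcdhga9 (r = 0.87, rho = 0.85). Araf was followed most closely by Usf2 and Trpt1 (r = 0.96 each, rho = 0.92 each). The list for Braf was Bnip3l (r = 0.89, rho = 0.70) and Pak4 (r = 0.89, rho = 0.81). For Map2k1 it was Piezo2 (r = 0.97, rho = 0.99) and Rbm26 (r = 0.95, rho = 0.99), and for Map2k2 it was Cox8a, a respiratory chain subunit (r = 0.97, rho = 0.96), and Timm13, a mitochondrial import factor (r = 0.96, rho = 0.78). Mapk3 had Rasal2, a Ras GTPase activating protein (r = 0.96, rho = 0.93), and Zfyve27 (r = 0.96, rho = 0.89). Each was the highest or next highest r among 13518 candidates, and all share the same 10 libraries.

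The wider pathway was described by 8 lists that together held 102 genes, of which 95 were tested. None passed over all genes in edgeR (0 of 95, where 0.175% of all genes did), and 6 had an unadjusted p below 0.05, where 9.62% of all genes did. Their median log2 fold change was 0.05, against 0.01 for all genes tested, with 57 above 0 and 38 below. DESeq2 called 2 of them, which is 2.11% of the 95 that passed edgeR's filter. This is near the 1.7% that DESeq2 called under its own filter, which left 17378 genes. Limma-voom with quality weights and limma on the deposited log2 values called 0. The groups did not overlap for 2 of 95 genes (2.11%), near the 1.9% of all genes.

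Those 2 genes, named after their values were seen, were also the ones DESeq2 called. Fntb, the beta subunit of the farnesyltransferase that attaches the lipid anchor of Ras, ranged from 30.2 to 36.2 CPM in Fes KO tumours and from 24.1 to 28.3 CPM in Fes WT tumours. Its log2 fold change was 0.35 (SE 0.08, edgeR adjusted p = 0.209, DESeq2 adjusted p = 0.00838). Ywhaz, a 14-3-3 protein that binds phosphorylated Raf, ranged from 191 to 224 CPM in Fes KO tumours and from 165 to 184 CPM in Fes WT tumours, with a log2 fold change of 0.24 (SE 0.08, edgeR adjusted p = 0.345, DESeq2 adjusted p = 0.0440).

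Upstream of Raf, 0 of 12 Ras exchange factors and adaptors and 0 of 10 Ras GTPase activating proteins passed, with median log2 fold changes of 0.02 and 0.10. The phosphatase gene Ptpn11 and the adaptor gene Gab1 had 0.05 (SE 0.10) and 0.36 (SE 0.26), and the GTPase activating proteins Nf1 and Rasa3 had 0.03 (SE 0.19) and 0.22 (SE 0.20). Of the other Ras family GTPases 0 of 9 passed, with a median of -0.03. Rap1b had -0.03 (SE 0.10). Mras, which helps to activate Raf, had 1.08 (SE 0.64, edgeR adjusted p = 0.616), at 158, 53.2, 309, 164 and 444 CPM in Fes KO 1 to 5 and 40.7, 106, 58.2, 52.6 and 277 CPM in Fes WT 1 to 5. Fes WT 5 thus lay above 3 of the 5 Fes KO tumours, and Fes KO 2 lay within the low Fes WT values. Of the 9 tested genes of Ras lipid modification and traffic 0 passed (median 0.03), where the farnesyltransferase alpha subunit gene Fnta had -0.12 (SE 0.10) and the depalmitoylating enzyme gene Lypla2 -0.22 (SE 0.18).

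Beside and below Raf, 0 of 19 Raf regulators and cascade scaffolds passed, with a median of 0.10 and 16 of 19 above 0, where 52.4% of all genes lay above 0. The chaperone gene Hsp90ab1 had 0.03 (SE 0.16) and the 14-3-3 gene Ywhae 0.19 (SE 0.09). Of the 14 tested Mek and Erk relatives in parallel cascades 0 passed (median 0.04), with the stress-activated kinases Mapk9 at -0.14 (SE 0.23) and Mapk14 at -0.13 (SE 0.10). Of 7 kinases downstream of Erk 0 passed (median -0.02), with Rps6ka3 at -0.04 (SE 0.13) and Mknk2 at -0.07 (SE 0.23).

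Genes that Erk signalling switches on gave 0 of 15 calls, with a median log2 fold change of 0.14 and 10 above 0. Dusp6, an Erk phosphatase, had 297 ± 73.3 CPM in Fes KO tumours and 301 ± 111 CPM in Fes WT tumours, and its log2 fold change was -0.01 (SE 0.26). Ccnd1, the cyclin D1 gene, was at 990.3 ± 315 and 1089 ± 631 CPM, with -0.14 (SE 0.37). Over the 15 genes the log2 fold changes ran from -0.50 for Egr1 to 0.99 for Etv4. Etv5, an Ets transcription factor gene chosen here with its values known, was the 1 gene of this list with an unadjusted edgeR p below 0.05. It had 0.55 (SE 0.25, edgeR adjusted p = 0.515). Its levels of 68.7 to 148 CPM in Fes KO tumours overlapped those of 56.1 to 109 CPM in Fes WT tumours.

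**Figure D5:**
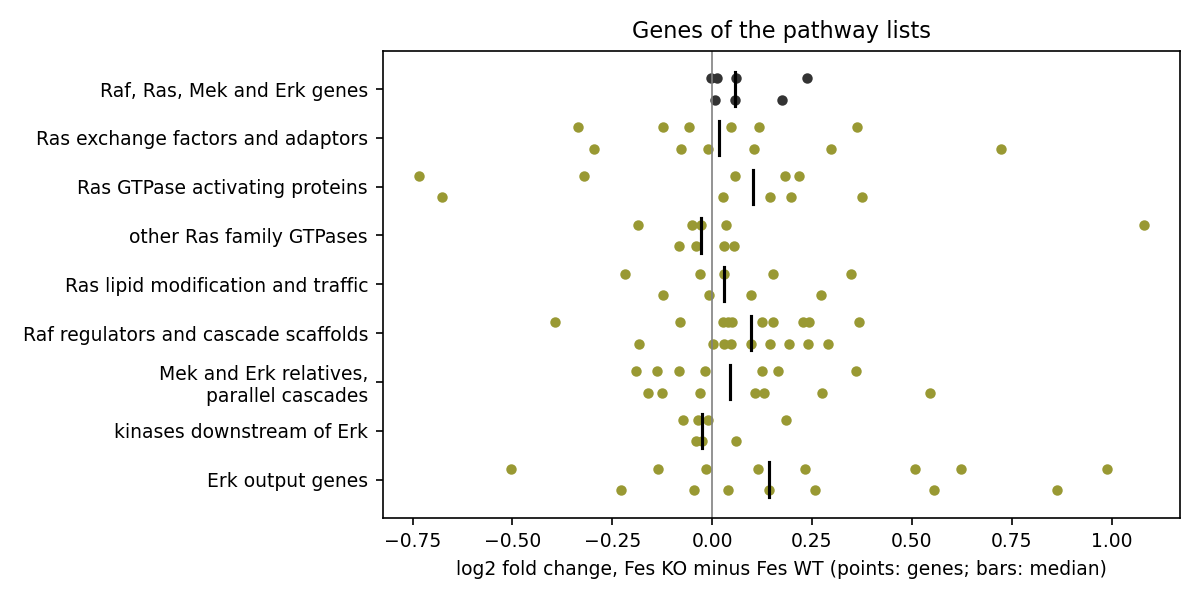
Log2 fold change, Fes KO minus Fes WT (horizontal axis), of the 7 genes (top) and of the tested genes of each pathway list. Points are genes and bars are medians, which lie between -0.03 and 0.14 in every list.

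Limits of the counting bear on single genes. Braf shares 146 exon bases (1.05% of its merged exons) with Ndufb2 on the opposite strand, and the sources used here do not give the strand setting of the counting. Similar transcripts were searched with the longest transcript of each gene only, so other exons were not covered. That of Nras shares stretches of 131 to 172 bases at 95.3% to 96.2% identity with Ilf2, Slc3a2 and Sdhaf2. No transcript of another gene matched those of the other 5 genes at 95% identity over 100 bases.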

How the data were processed

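The authors deposited raw gene counts and, separately, log2 values of the same genes. Per the submitters' processing notes, the tools were FastQC, STAR (2.51b) and Subread (1.4.6), with mm10 and GRCm38 as builds; the sources used here do not give their settings. Each deposited log2 value was found to be the log2 of 1 plus the count over a median-of-ratios size factor, within 5.2e-11. Groups came from the sample titles.

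The test was edgeR's (4.0.16, R 4.3.3) on the deposited counts (TMM, filterByExpr, quasi-likelihood, 2-sided, Benjamini-Hochberg over 14816 genes). CPM used TMM library sizes. SE is the log2 fold change divided by the root of F, and 95% intervals use the t distribution. Depth limits precision through counting error, which intervals between tumours include. Marker sums use all listed genes. GENCODE M21 (GRCm38) gave lengths, and blastn version 2.17.0+ similar transcripts. Alternatives used DESeq2 version 1.42.0 and limma version 3.58.1. The edgeR script was tested on simulated data.

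The members and lists were chosen with earlier results of these data known. From each list the 2 tested genes highest in mean CPM were named, and any called gene. An allele shared by both groups is not reported here. No sample was left out of the main fits.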

Additional observations from a re-analysis of the deposited data

Results flagged for a closer look

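Among 48 sets of 5 tumours, which are Fes, the 7 genes and the pathway genes named by rule in each genotype, 6 held a tumour whose gap to the nearest other tumour was above Dixon's 95% limit of 0.71 of the whole range. This limit flags about 1 in 20 sets by chance where values are normally distributed, which was not checked for CPM. Flags of several genes in the same tumour are not independent, so the count of flags was not compared with chance. Hras was at 89.05 CPM in Fes KO 2, against at most 41.03 CPM in the other Fes KO tumours, and its keratinocyte and muscle transcripts are given in the report. In the same tumour Hsp90ab1 was at 1414 CPM, against at most 1098 CPM in the others of its group, and Mknk2 at 173.7 CPM, against at most 108.9 CPM. Mknk2 was also high in Fes WT 3, at 179.8 CPM against at most 118.9 CPM in the other Fes WT tumours. Mras was at 276.8 CPM in Fes WT 5, against at most 105.5 CPM in the others. Lypla2 was at 76.54 CPM in Fes KO 3, against at least 117.5 CPM in the other Fes KO tumours.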

How the results depend on the processing

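None of the 7 genes was called in any alternative run. Overlap in CPM was counted only with other normalisation factors and with tumours left out, and there all 7 had overlapping groups. Braf kept its sign in all 21 alternatives. Each of the other 6 turned sign in at least 1 alternative. Without a single tumour the log2 fold changes ran from 0.09 to 0.23 for Braf, -0.0363 to 0.0509 for Araf, -0.0602 to 0.0389 for Nras, -0.15 to 0.41 for Hras, -0.0795 to 0.0729 for Map2k1, -0.00907 to 0.11 for Map2k2 and -0.0110 to 0.17 for Mapk3. Map2k1 was at -0.0061 with limma on the deposited log2 values and at -0.0033 with the replicate block. With keratinocyte and muscle levels as covariates Araf was at -0.015, Map2k1 at -0.017 and Mapk3 at -0.061. Hras kept its sign there, at 0.12 (SE 0.16) against 0.24 (SE 0.31) in the main fit. Leaving out the 3 Xist-expressing tumours put Hras at -0.14, Map2k1 at 0.15 and Mapk3 at 0.24. These 3 tumours include Fes KO 2, and without Fes KO 2 alone Hras was at -0.15, Map2k1 at 0.07 and Mapk3 at 0.09. The cause of these turns was not tested. Per kb of the longest transcript, 4 of the 7 genes kept their place in the order of level. The ratios with that length were added after seeing the data.

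Over all genes, 26 were called (7 higher and 19 lower in Fes KO). There were 295 with DESeq2, 115 with limma-voom with quality weights, 107 with the covariates (61 higher and 46 lower), 64 when those 3 tumours were left out (36 higher and 28 lower), 49 at an adjusted p below 0.1, and between 10 and 54 without single tumours. With the replicate block there were 4. Same-numbered tumours had correlations of their deviations between -0.378 and 0.172, and 1 of 10 tumours correlated best with its own number. Such correlations cannot show whether same-numbered tumours share a batch, and the titles give only the number. In the pathway lists, DESeq2 called 1 gene each in Ras lipid modification and traffic and in Raf regulators and cascade scaffolds.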
